A study of Mus musculus with 186 samples.

Results

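Fresh inner cells of the mouse blastocyst were compared between the last and the first of the stages collected, E4.0 and E3.25. Their columns were chosen by the labels alone: developmental stage E4.0 or E3.25, taken straight from the embryo with no culture and no agent. There were 34 such columns of 170 in the table, from 33 cells of 169. E3.25 gave 19 cells in 2 experiments of 9 and 10 cells, and E4.0 gave 14 cells in 2 experiments of 9 and 5 cells. An experiment is the set of cells of 1 stage that share a date label, and it was the replicate. The design text says that each experiment pooled several litters, so cells of 1 experiment can come from different embryos. All embryos were CD-1, an outbred mouse stock with no genetic change stated, from timed natural matings. The zona pellucida was taken off and the outer layer was killed by immunosurgery before single inner cells were picked. The rest of the series holds fresh E3.75 cells and embryos cultured for 16 or 24 hours with DMSO or with the PI3K inhibitor LY294002. The levels below are log2(TPM + 1), with TPM the transcript abundance of the authors' table, and a difference is E4.0 minus E3.25 on that scale.

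Inner cells start out as a mixed population in which single cells carry regulators of both later fates, NANOG of the epiblast and GATA6 of the primitive endoderm. FGF signalling through ERK then sorts them. Cells that keep NANOG form the epiblast, the source of the embryo proper, and the others form the primitive endoderm, which lays down a basement membrane and lines the yolk sac.

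The labelled tissue was checked against its markers. Nanog had a TPM of at least 1 in 19 of 19 E3.25 cells and 14 of 14 E4.0 cells, as did Sox2 and Pou5f1. Gata6 was detected at that level in 18 of 19 and 12 of 14 cells. Sox17, a later factor of the primitive endoderm, was detected in 5 of 19 and 11 of 14 cells. Cdx2, which defines the outer trophectoderm, was detected in 1 cell of each stage, and Tfap2a, Elf5 and the blood cell gene Ptprc in none of the 33 cells. Krt8, a keratin gene of the same layer, was detected in 18 of 19 and 10 of 14 cells. Summed over 8 trophectoderm markers, TPM ran from 26.7 to 1166 (median 132) in E3.25 cells and from 3.26 to 234 (median 14.2) in E4.0 cells. Of these markers 6 of 8 were detected in some cell of each stage, and Elf5 was at 0 in every E4.0 cell. Over 8 markers of maternal blood and uterus the sum ran from 0 to 618 (median 12.9) at E3.25 and from 0.31 to 75.5 (median 19) at E4.0, with Ltf at 0 in every cell.

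More genes were detected per cell in both E4.0 experiments than in either E3.25 experiment. Cells of the 2 E3.25 experiments detected a mean of 6393 and 6078 genes at that level, and cells of the 2 E4.0 experiments 7236 and 7682. Mitochondrially encoded genes held 3.04% and 10.8% of TPM at E3.25 and 16.1% and 14.3% at E4.0. The experiment means did not overlap between the stages in either measure, but single cells did. The mitochondrial share ran from 0.436% to 25.8% in E3.25 cells and from 1.20% to 32.5% in E4.0 cells. The exact two-sided permutation p over the 4 experiments was 0.33 for each measure, the smallest that 2 against 2 allows. In the second E4.0 experiment the mitochondrial share was 1.20% to 3.19% in the 3 cells of sequencing run 1 and 31.7% to 32.5% in the 2 cells of run 2. External spike-in sequences held at most 0.168% of TPM in any of the 33 cells.

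Of the 14 cells labelled E4.0, 2 stood apart from the other 12, and both came from the first E4.0 experiment and from run 1. Their mean correlation across the tested genes was 0.628 and 0.638 with the other E4.0 cells but 0.711 and 0.703 with the cells cultured for 16 hours in DMSO. The other 12 E4.0 cells each correlated best with E4.0 cells, at 0.638 to 0.725. Only 4 of 19 E3.25 cells correlated best with their own stage, so the same measure separates E3.25 cells poorly. In the 2 cells Srgn, Foxa2, Gata4 and Sox17 were all at 0, while Alppl2 had a TPM of 1155 and 194 and Cited1 of 629 and 89.3. In the other 12 cells Srgn lay between 3.61 and 559, Foxa2 between 3.36 and 44.8, and Alppl2 between 0 and 16.4. The number of genes detected in the 2 cells, 7053 and 7521, lay within the 5739 to 9132 of the other E4.0 cells. Both cells were kept in the comparison. The counts over all genes, and those of some lists, are given below also without them. The other list counts hold both cells, and some changed without them.

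From E3.25 to E4.0, 195 of 11680 tested genes passed an adjusted p of 0.05 (1.67% of those tested). Of these, 164 were higher at E4.0 (1.40%) and 31 were lower (0.265%). An unadjusted p under 0.05 was reached by 1502 genes, 1093 higher and 409 lower. The median difference over all tested genes was 0.20, so a gene at 0 lay slightly below the middle of the table. Without the 2 E4.0 cells that stood apart, 298 genes passed, 241 of them higher and 57 lower, and 192 of the 195 genes were still among them. The balance of the directions depended on the scaling. Higher genes made up 84.1% of the calls, but 64.5% after quantile normalization, 61.3% with the number of genes detected as a covariate and 70.5% with the log taken of the mean TPM. All 195 genes kept their direction in each of those fits. A fit of only the 4 experiments, with 2 residual degrees of freedom, passed no gene, with 1170 genes at an unadjusted p under 0.05.

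**Figure D1:**
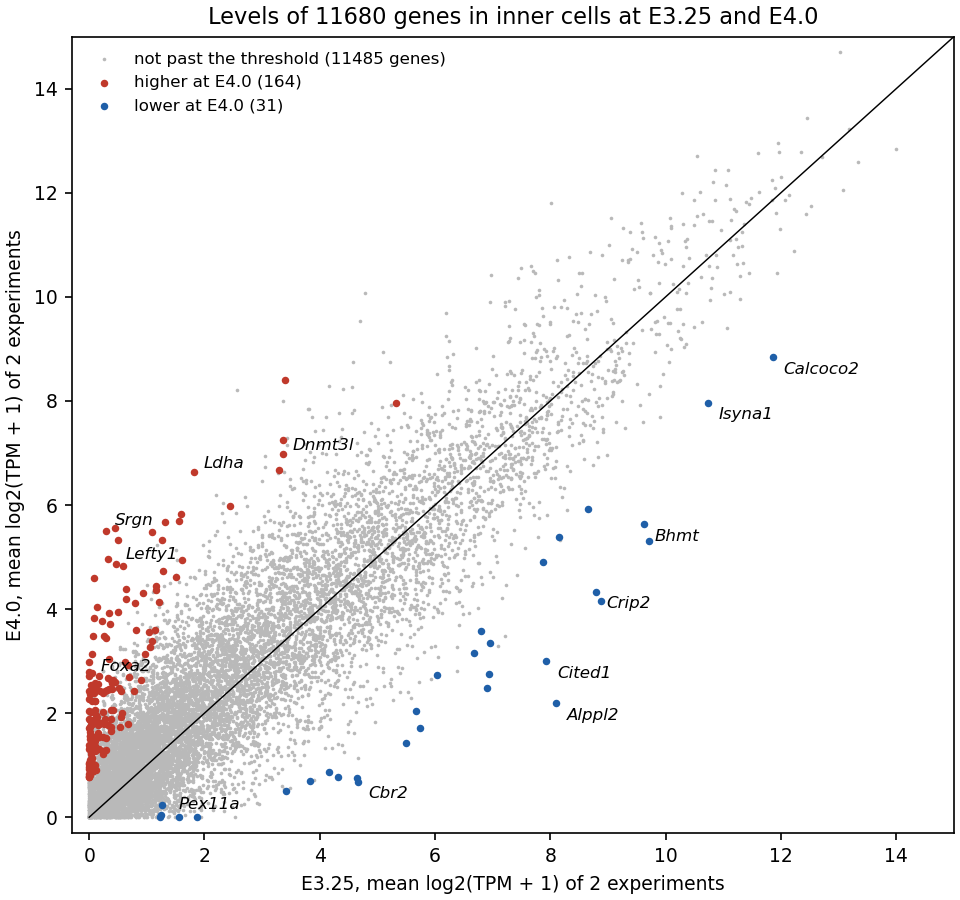
Mean log2(TPM + 1) of the 2 E4.0 experiments (vertical) against that of the 2 E3.25 experiments (horizontal) for 11680 genes, with the line of equal level. The 164 genes higher at E4.0 (red) crowd at the left edge, near 0 at E3.25, while the 31 genes lower at E4.0 (blue) spread along the range of E3.25 levels.

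The 2 directions differed in how widely the genes were detected at the start. The E3.25 and E4.0 cells also chose the genes, and a large fall needs a high start. These shares are therefore set in part by the choice and are a description. Of the 31 lower genes, 25 were detected (TPM of 1 or more) in 80% or more of E3.25 cells, which is 80.6% of them against 22.7% of all tested genes, and 17 were detected in every E3.25 cell. Their median share of cells detecting them was 100% at first, 90.9% at E3.75 and then 64.3%. At E4.0, 4 of the 31 were still detected in all 14 cells and 4 were detected in none. The higher genes were detected in a median of 5.26% of E3.25 cells, 9.09% of E3.75 cells and 57.1% of E4.0 cells, and 64 of 164 were detected in no E3.25 cell. At E4.0, 34 of them were detected in at least 80% of cells, 97 in 40% to 80% and 33 in under 40%. The filter on low values bears on these shares: 111 of the 164 passed it only through the E4.0 cells and so had to be low elsewhere, against 587 of all tested genes. A mean over cells mixes how many cells hold a transcript with how much each of them holds.

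**Figure D2:**
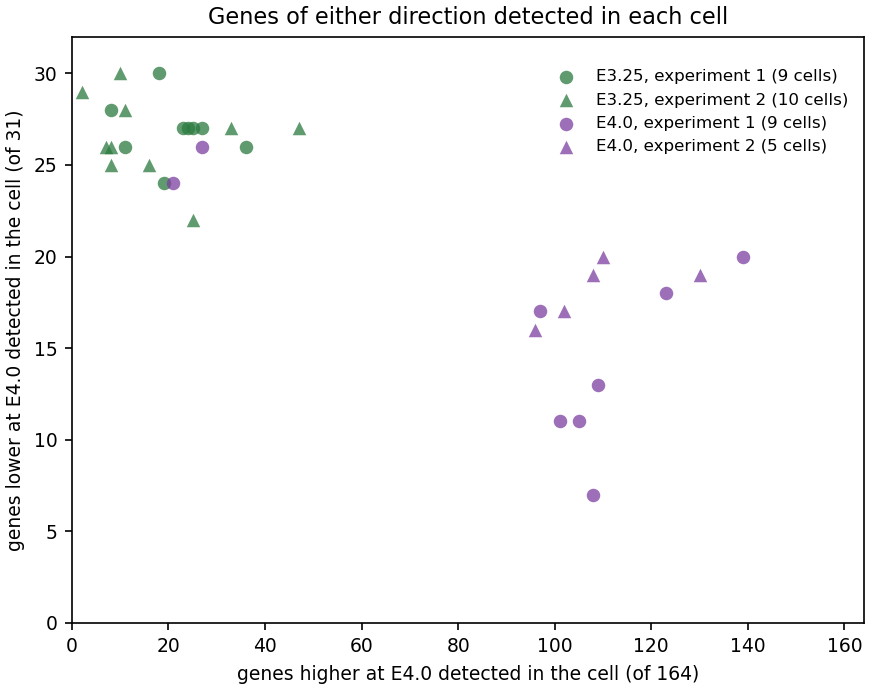
Each point is 1 cell, placed by how many of the 164 genes higher at E4.0 (horizontal) and of the 31 genes lower at E4.0 (vertical) it detected at a TPM of 1 or more. The genes were chosen with these same cells, so a separation of the stages follows in part from the choice. E3.25 cells (green) detected 2 to 47 and 22 to 30, 12 of the E4.0 cells (purple) 96 to 139 and 7 to 20, and the 2 E4.0 cells that stood apart 21 and 27 higher genes and 24 and 26 lower genes.

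The lower genes are described first, by role. Alppl2, an alkaline phosphatase gene on chromosome 1 (87086694 to 87089928, minus strand, ENSMUSG00000026246.12, mm10), had experiment means of 8.05 and 8.16 at E3.25, then 5.41 and 4.65 at E3.75 and lastly 2.48 and 1.90 at E4.0. The E3.75 means lay between those of the other stages, and its cells at E4.0 split between 8 with a TPM under 1 and 6 above it, the 2 cells that stood apart holding the highest values. Its difference was -5.91 ± 1.02 (SE; adjusted p = 0.00204). Cited1, which encodes a transcription co-activator that binds CBP, lies on chromosome X (102247381 to 102252181) and went from 8.09 and 7.78 at E3.25 to 3.97 and 2.03 at E4.0. Its lowest E3.25 cell had a TPM of 24.5, above the median of 7.37 in E4.0 cells (difference -4.93 ± 0.79, adjusted p = 0.00103). Crip2, a LIM domain gene on chromosome 12, stood at 8.55 and 9.04 and then at 3.02 and 5.64 (difference -4.46, adjusted p = 0.00185). Its stage difference was not the same in both sequencing runs (adjusted p = 0.0341 for the difference between runs). Alppl2, Cited1, Crip2 and Gulo were the lower genes that also passed in each of the 4 fits that left out 1 experiment.

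Enzymes and other metabolic genes are given next, gathered after they had passed. Gulo, which encodes the last enzyme of vitamin C synthesis, went from experiment means of 6.94 and 6.86 to 1.39 and 3.59 (difference -4.41, adjusted p = 0.00253). Pemt, whose product turns phosphatidylethanolamine into phosphatidylcholine, stood at 8.92 and 8.84 at E3.25 and at 3.80 and 4.53 at E4.0 (difference -4.72, adjusted p = 0.0112). Bhmt, which remethylates homocysteine with betaine, went from 9.59 and 9.66 to 4.24 and 7.03 (difference -3.99, adjusted p = 0.00677). None of these 3 genes had overlapping experiment means between the stages, which follows in large part from their choice by this comparison. Gpd1l, a glycerol-3-phosphate dehydrogenase gene, fell by 4.18, and Cbr2, a carbonyl reductase gene, by 3.99. Gch1, of the first step of tetrahydrobiopterin synthesis, fell by 3.14 and was detected in 19 of 19 E3.25 cells but 2 of 14 E4.0 cells. Isyna1, of inositol synthesis, fell by 2.78 and stayed detected in all 14 E4.0 cells. Pex11a, of peroxisome division, was detected in 6 of 19 E3.25 cells, 2 of 22 E3.75 cells and no E4.0 cell (difference -1.21). By list, 3 of 24 tested genes of glycerolipid and phospholipid synthesis fell (Pemt, Gpd1l and Tmem41b) and none rose, where 0.265% of all tested genes fell. The list median was -0.81, against 0.20 over all tested genes. Tmem41b, also counted on the autophagy list, encodes a lipid scramblase rather than a synthesis enzyme. The list's lower count was 4 without the 2 cells that stood apart, 0 among cells of run 1 alone, 2 and 0 without the first and the second E3.25 experiment, and 1 and 3 without the first and the second E4.0 experiment.

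Further falls lay in genes of autophagy, lysosomes and membranes. Calcoco2, an autophagy receptor gene on chromosome 11 (96099326 to 96111964), was among the most abundant of the falling genes. In E3.25 cells its TPM ran from 1580 to 10590 with a median of 3351, and in E4.0 cells from 30.1 to 2171 with a median of 431. The experiment means were 11.5 and 12.3 at E3.25 and 7.79 and 9.89 at E4.0 (difference -3.03 ± 0.62, adjusted p = 0.00963), so it dropped in level while it stayed detected in every cell. Map1lc3a, which encodes an LC3 protein of the autophagosome, fell by 3.22, and 92.3% of that difference was present at E3.75. Tmem41b, an endoplasmic reticulum lipid scramblase gene needed for autophagosomes in mammalian cells, fell by 4.41, and Reep1, which shapes that organelle's tubules, fell by 4.04. Of all tested genes 0.265% fell. On the autophagy list Map1lc3a and Tmem41b were the 2 of 20 tested genes to fall, the others did not pass, and the median was -0.71. That count was also 2 without the 2 cells that stood apart, but 1 without the first E3.25 experiment and 0 without the second, without the first E4.0 experiment or among cells of run 1. Psap, the precursor of lysosomal saposins, went from 8.33 and 8.96 to 5.79 and 6.05 (difference -2.73, adjusted p = 0.0262) and was the 1 gene of 25 on the lysosome list to pass. Gaa of that list passed, as lower, without the E4.0 cells that stood apart. Ndfip1 and Pttg1ip, genes of membrane proteins, fell from means of 8.11 and 8.18 to 5.09 and 5.69 and from 7.71 and 8.02 to 4.17 and 5.65.

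Of the genes for signals and cell death, Fstl3, a secreted antagonist of activins, fell by 3.55, from detection in 16 of 19 to 4 of 14 cells. Flt3l, a cytokine gene, was detected in 9 of 19 E3.25 cells, 1 of 22 E3.75 cells and no E4.0 cell (difference -1.87). Bad, which encodes a death-promoting member of the BCL2 family, fell by 3.59, and Sfn, which encodes the 14-3-3 sigma protein, by 3.51. Rflnb and Palm3, of the actin cytoskeleton and plasma membrane, fell by 3.89 and 3.29. Olfr506, named as an olfactory receptor gene, fell by 3.64 from detection in all 19 E3.25 cells to 9 of 14 E4.0 cells, and Lrr1 fell by 3.30. The remaining falls were those of the processed pseudogene Gm5612, the antisense or noncoding genes 1700113A16Rik, Gm20659 and Gm15892, and Gm49957, with differences of -4.08, -2.90, -1.23, -1.01 and -1.55. Reads of a pseudogene can come from its parent gene, and 12 of the 31 lower genes overlap another annotated gene, so these values are uncertain. Isyna1, Ndfip1, Psap, Gm20659 and Pex11a passed in none of the 4 fits that left out 1 experiment. The keratin genes Krt8 and Krt18 stood lower at E4.0 without passing (differences -2.72 and -3.00, adjusted p = 0.195 and 0.273). Of 18 tested trophectoderm markers none passed by limma, with 3 higher and 4 lower at an unadjusted p under 0.05 and a median of -0.01. Tfap2c of this list passed, as lower, without the E4.0 cells that stood apart. The summed level of the 8 markers given above, some of them too rarely detected to be tested, had a lower median at E4.0, and their part in the falls was not tested.

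**Figure D3:**
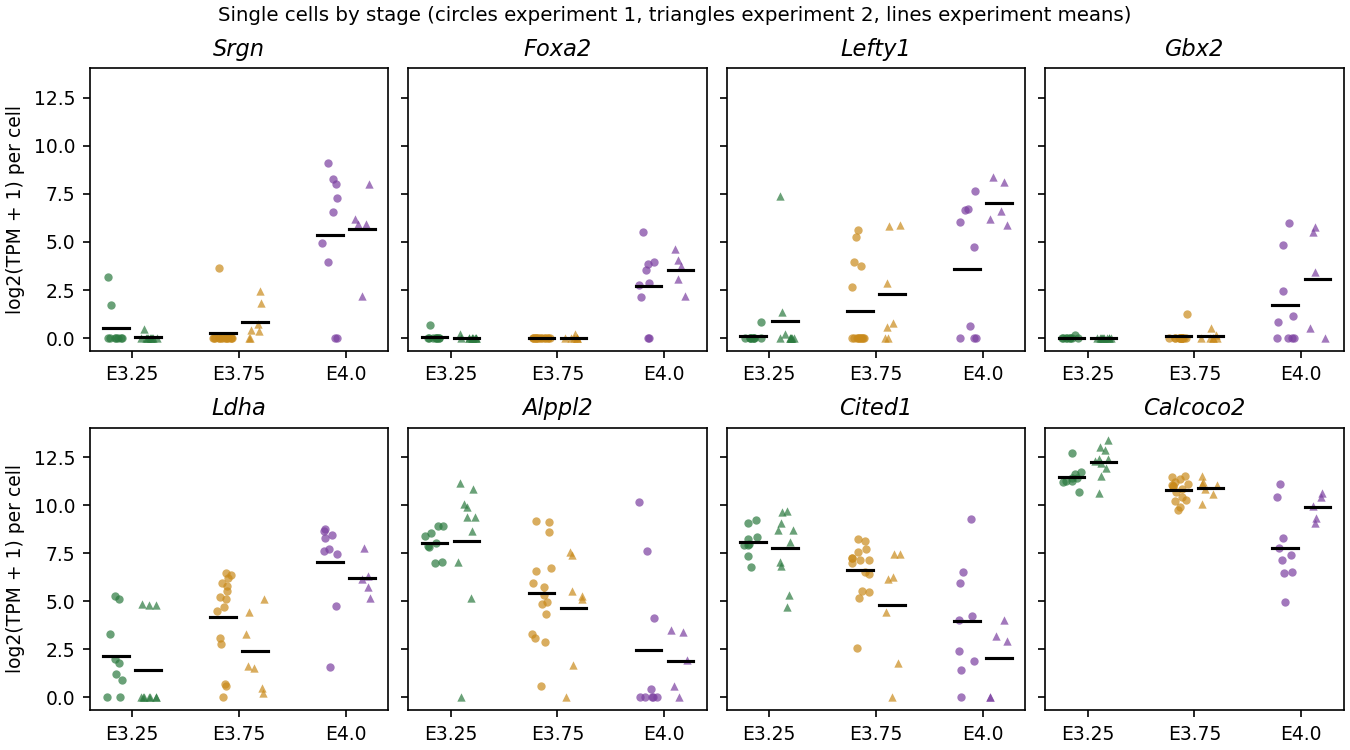
Log2(TPM + 1) of 8 genes in every cell of the 3 fresh stages, with circles and triangles for the 2 experiments and lines at the experiment means. Foxa2 and Gbx2 are near 0 until E3.75, Calcoco2 drops while detected in every cell, and 2 circles at E4.0 keep high Alppl2 with no Srgn or Foxa2.

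Among the lists by function or lineage, primitive endoderm markers held the most rising genes. The list was drawn up with earlier results of these data known. Of 26 tested markers 10 rose (1.40% of all tested genes rose) and none fell, with a median of 1.94. Of the 10, 7 passed the filter on low values only through E4.0. Foxa2, an endoderm transcription factor gene on chromosome 2 (148042877 to 148046969), had experiment means of 0.07 and 0.02 at E3.25, then 0 and 0.03 at E3.75 and lastly 2.73 and 3.55 at E4.0. It was detected in 0 of 19, 0 of 22 and 12 of 14 cells, the 2 without it being those that stood apart. Pth1r, the receptor for parathyroid hormone-related protein, was likewise detected in 0, 0 and 12 cells, with E4.0 means of 3.83 and 3.84 (difference 3.74, adjusted p = 2.07e-07). Gata4 and Lama1 rose by 3.22 and 4.13, with 46.1% and 30.7% of the difference present at E3.75. Both passed in only 1 of the 4 fits without 1 experiment. The primitive endoderm count was 11 without the 2 cells that stood apart and ran from 7 to 9 without 1 experiment. Among cells of run 1 alone it was 1, and 7 once the 2 cells, both of run 1, were left out.

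Some genes of the matrix and of secreted proteins rose. Nid2, which encodes the basement membrane linker nidogen, was detected in 1 of 19, 2 of 22 and 13 of 14 cells (difference 3.91, adjusted p = 3.38e-07). Hspg2, which encodes the basement membrane proteoglycan perlecan, rose by 0.82. Serpinh1, the collagen chaperone gene, had experiment means of 1.27 and 1.91 at E3.25, then 1.38 and 3.53 at E3.75 and lastly 5.31 and 6.36 at E4.0 (difference 4.25, adjusted p = 0.00158). On the basement membrane list 3 of 19 rose (4 without the 2 cells that stood apart, and 1 without either E3.25 experiment) and the median was 0.82, while of 16 collagen processing enzymes Serpinh1 alone passed and of 7 collagens none passed by limma, with 1 higher and 1 lower at an unadjusted p under 0.05. Of the 3 basement membrane genes that rose, 2 passed the filter on low values only through E4.0, and 1.40% of all tested genes rose. Tfpi, an inhibitor of coagulation proteases, stood at 1.02 and 1.51, then at 1.14 and 0.29, then at 5.50 and 5.17 (difference 4.08, adjusted p = 9.41e-05). Htra1, a secreted serine protease gene, rose by 4.62 from detection in 2 of 19 to 12 of 14 cells. Wfdc2, which encodes a secreted protein with a protease inhibitor fold, rose by 4.36. Of 17 serine proteases and inhibitors 4 rose (1.40% of all tested genes rose) and none fell, with a median of 1.75. That median was 0.64 when the second E3.25 experiment was left out and 1.12 when the first of E4.0 was. The glypican gene Gpc4 rose by 1.18, and Amn, which anchors cubilin in the apical membrane, by 5.11.

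Of genes linked to the epiblast and its states, a few rose. Gbx2, a homeobox gene that supports naive pluripotency in mouse cells, stood at 0.02 and 0 at E3.25, then at 0.08 and 0.10 and lastly at 1.70 and 3.05. It was the 1 gene of 20 on the naive pluripotency list to pass (difference 2.37, adjusted p = 0.000376), was detected in 7 of 14 E4.0 cells, and the list's median was -0.04. Gbx2 passed the filter on low values only through E4.0. Tcl1 of that list passed, as higher, without the E4.0 cells that stood apart. Dnmt3l, a cofactor of DNA methylation, rose by 3.62 and was detected in 13 of 19 E3.25 cells and in all 14 E4.0 cells. Of 8 tested genes of formative and primed pluripotency 2 rose and none fell (1.40% of all tested genes rose), with a list median of 1.61 that was 0.94 without the second E4.0 experiment. Dnmt3l lost its call in each of the 4 fits that left out 1 experiment. Phc1, a Polycomb subunit gene, stood at 0.61 and 0.99 and then at 3.98 and 4.26 (difference 3.33, adjusted p = 0.000924), while none of 27 other Polycomb and histone lysine methylation genes passed by limma, with 1 in each direction at an unadjusted p under 0.05. Morc1, a germline silencing gene, rose by 1.66, and its difference varied between runs (adjusted p = 0.00783). The epiblast list had 3 of 21 genes higher, where 1.40% of all tested genes rose, and none lower. Of the 3, 2 passed the filter on low values only through E4.0. The list's median was 0.69, which was 0.07 without the second E4.0 experiment and -0.03 with genes detected as a covariate.

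Secreted regulators of NODAL and WNT rose together with these. Lefty1, a NODAL antagonist gene on chromosome 1 (180935022 to 180938400), had experiment means of 0.09 and 0.89, then 1.41 and 2.28, then 3.60 and 7.04. Lefty2, its neighbour at 180893108 to 180899103 on the same strand, stood at 0.04 and 0.10, then 1.40 and 1.19, and lastly 2.93 and 6.27. Both were higher in the second E4.0 experiment than in the first, with 28.1% and 26.9% of their differences present at E3.75. They were the 2 genes of 15 on the NODAL and BMP list to pass, where 1.40% of all tested genes rose. Dkk1, a secreted WNT antagonist gene, rose from means of 0.14 and 1.15 to 3.42 and 5.36, and from 3 of 19 through 8 of 22 to 12 of 14 cells. It was the 1 gene of 14 on the WNT list to pass. Lgr4 of that list passed, as higher, without the E4.0 cells that stood apart. None of 16 FGF and ERK pathway genes passed by limma, with 4 higher and 2 lower at an unadjusted p under 0.05. Without the E4.0 cells that stood apart Spred1 of that list passed, as higher. The FGF receptor genes Fgfr1 and Fgfr2 stood at -2.14 and 1.31 (adjusted p = 0.362 and 0.423). Trh, the precursor gene of thyrotropin-releasing hormone, rose by 4.42, and Igfbp2, an insulin-like growth factor binding protein gene, by 2.54.

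Of the metabolic lists, glycolysis held the most rising genes. Of 22 tested genes 5 rose, where 1.40% of all tested genes rose, and none fell. Of the 5, 2 passed the filter on low values only through E4.0. The list median of 1.38 lay between 0.64 and 2.13 in every other fit. The count was 6 without the 2 cells that stood apart and 0 among cells of run 1 alone, 2 and 1 without the first and the second E3.25 experiment, and 3 and 2 without the first and the second E4.0 experiment. Ldha, of lactate dehydrogenase, had experiment means of 2.17 and 1.45 at E3.25, then 4.20 and 2.40 at E3.75 and lastly 7.03 and 6.23 at E4.0. Its cells at E3.25 ran from 0 to 37.9 TPM with a median of 0.9, and those at E4.0 from 1.95 to 439 with a median of 186 (difference 4.82, adjusted p = 0.0285). Pgam2, a phosphoglycerate mutase gene, rose by 4.25, Pfkl, of the liver-type phosphofructokinase, by 2.93, and Aldoc, an aldolase gene, by 1.81. Pdk1, a kinase gene that restrains entry of pyruvate into mitochondria, rose by 2.40 and was the glycolysis gene that passed in all 4 fits without 1 experiment. Ldha and Pfkl passed in none of them. Of 22 genes of the TCA cycle none passed by limma, with 1 higher and 0 lower at an unadjusted p under 0.05. Among 168 solute carriers, 5 rose (2.98%, against 1.40% of all tested genes), of which 4 passed the filter on low values only through E4.0. They were led by Slc44a2 at 3.55 and by Slc17a9 at 2.78, a vesicular nucleotide transporter gene detected in 0 of 19, 1 of 22 and 12 of 14 cells. Without the E4.0 cells that stood apart Slc16a3, Slc7a1 and Slc7a7 passed as higher.

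Other rises lay outside these groups. Exoc3l, Bend5, Gjc1 and Stmn2, the last 2 of a gap junction connexin and a microtubule regulator, rose by 3.17, 3.22, 2.72 and 2.53. Ifitm1 and Ifitm3, membrane proteins induced by interferon in other cells, rose by 1.95 and 2.46, and the other 12 tested genes of that list did not pass. Ifitm1 passed the filter on low values only through E4.0. Samd9l, Ddx58 and Parp10, which are not on that list, passed and rose by 1.32, 1.52 and 1.33. Each passed the filter on low values only through E4.0. Vim, the vimentin gene, rose by 1.49 from detection in 0 of 19 to 9 of 14 cells. Platr10, a long noncoding RNA gene, and Ube2dnl1, a gene of a small ubiquitin-conjugating family, rose by 3.36 and 3.11, and both differed between runs (adjusted p = 0.0201 and 0.000958). The difference of Ube2dnl1 was -0.06 among cells of run 1 alone. Gm28438, an unprocessed pseudogene whose reads can be shared with its parent, rose by 5.01. Of the 164 rising genes, 148 are protein coding and 12 are long noncoding, and 72 overlap another annotated gene.

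Large gene classes of basic cell function held no gene past the threshold by limma. They comprised 88 cytosolic ribosomal proteins, 95 subunits of oxidative phosphorylation, 32 mitochondrially encoded genes, 30 genes of DNA replication, 28 of mitosis, 30 of RNA splicing and 26 endoplasmic reticulum chaperones. An unadjusted p under 0.05 in the higher direction was reached by 9, 14, 9, 3, 1, 0 and 6 of them, and in the lower direction by none. Over all 11680 tested genes it was reached by 1093 higher and 409 lower. The class medians were 1.00, 0.89, 1.94, 0.86, 0.29, 0.19 and 0.65. Cells of run 2 alone passed 7 ribosomal and 7 oxidative phosphorylation genes, and 4 of each passed without the first E3.25 experiment. Without the 2 cells that stood apart, 2 mitochondrially encoded genes and the chaperone gene Dnajc3 passed, all higher. The ribosomal median was 1.88 without the first E3.25 experiment and 0.01 without the second, and the oxidative phosphorylation median 1.55 and 0.09. The mitochondrially encoded median was 1.08 and 3.27 without the first and the second E3.25 experiment, 0.65 and 3.16 without the first and the second E4.0 experiment, and 0.72 and 3.64 among cells of run 1 and of run 2. Of the 1726 predicted genes with a Gm number 10 rose and 4 fell (0.58% and 0.23%). Of 240 zinc finger genes 4 rose (1.67%) and none fell. Over all tested genes 1.40% rose and 0.265% fell, so the shares of both classes were near or below these.

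**Figure D4:**
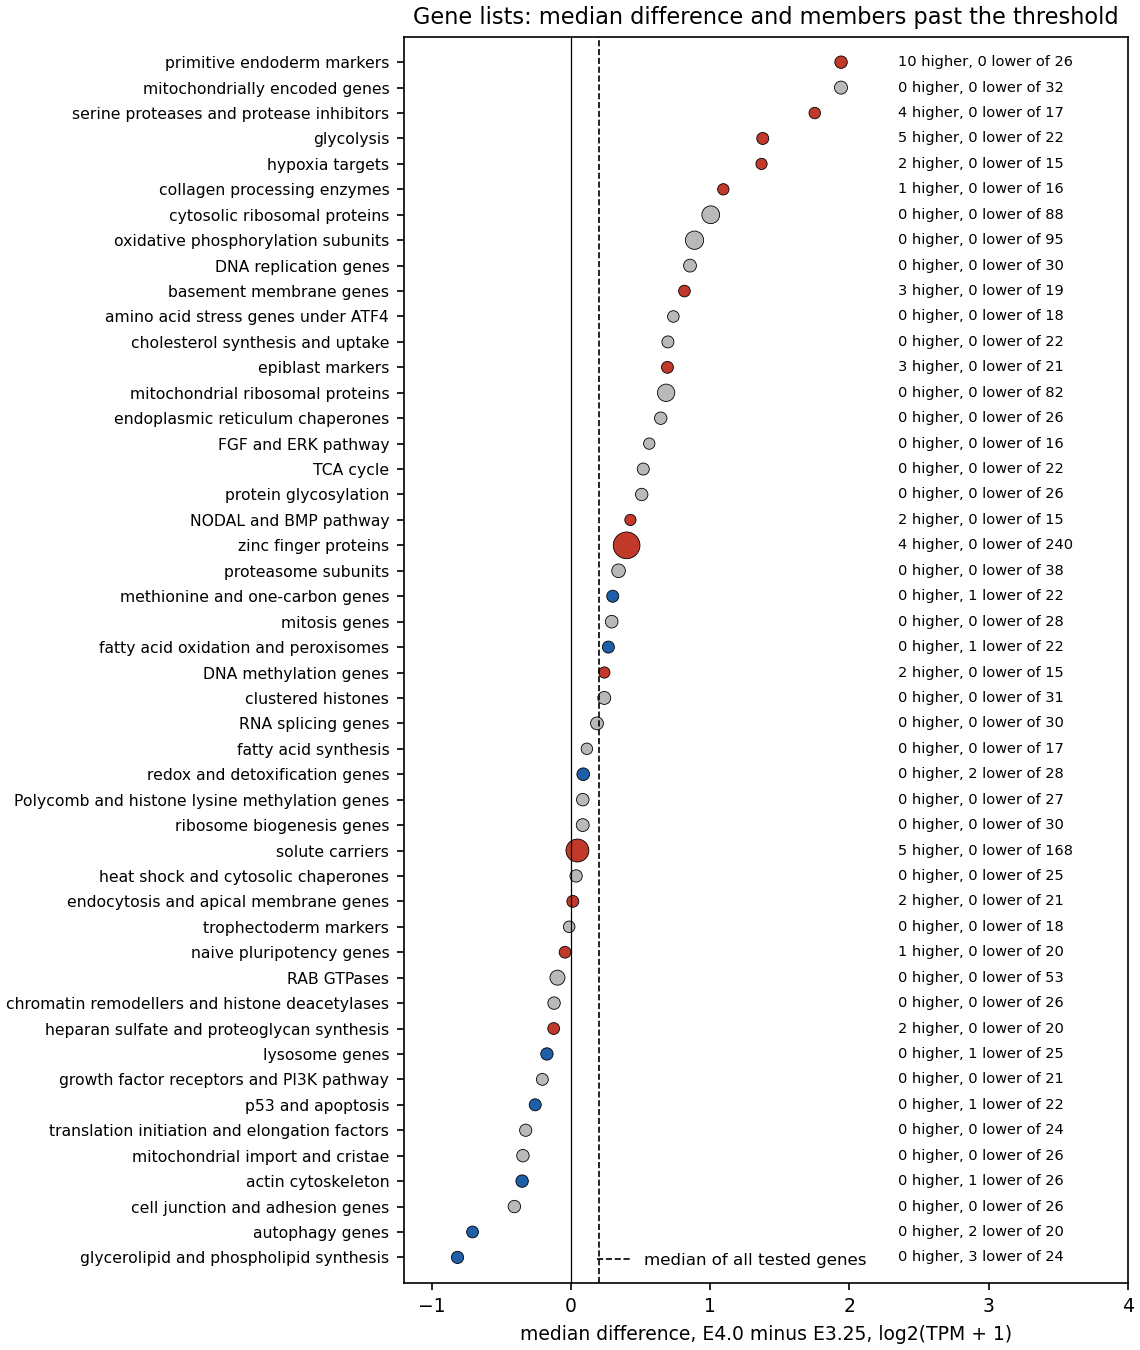
Median difference (E4.0 minus E3.25, log2(TPM + 1)) of gene lists with at least 15 tested genes, leaving out the predicted Gm, RIKEN-named and Tmem classes. Dot area grows with the number of genes, with red for lists with only higher calls, blue for lists with only lower calls and grey for none. The dashed line is the median of all tested genes, 0.20. Primitive endoderm markers lie at 1.94 with 10 of 26 higher, and glycerolipid and phospholipid synthesis at -0.81 with 3 of 24 lower, the scramblase gene Tmem41b among them.

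The E3.75 cells entered this comparison through the shared spread and through the filter on low values, which a gene could pass in any group. The 111 rising genes that passed it only through E4.0 had to be detected in under 25% of E3.75 cells, so their low E3.75 levels were largely set by the filter, and none of the falling genes was bound in this way. For the rising genes the median of the E3.75 mean was 0.29, against 0.17 at E3.25 and 2.06 at E4.0, and the mean at E3.75 was nearer E3.25 in 159 of 164. For the falling genes the medians were 6.67, 4.69 and 2.49, and the mean at E3.75 was nearer E4.0 in 20 of 31. The median share of the full difference present at E3.75 was 3.80% for the rising genes, with quartiles of -1.41% and 17.8%, and 56.6% for the falling genes, with quartiles of 34.2% and 76.1%. For the 53 rising genes that passed the filter through another group, the median share was 16.5%, with quartiles of 3.80% and 26.9%, and the mean at E3.75 was nearer E3.25 in 50. All these values share the E3.25 and E4.0 cells that chose the genes and are a description. Between E4.0 and E3.75, 118 of the rising and 3 of the falling genes passed, and between E3.75 and E3.25 none of either by limma (11 rising and 22 falling genes at an unadjusted p under 0.05). A test of whether the change after E3.75 differed from that before it, added after these values were seen, passed 8 genes (0.0685% of those tested), all rising and 6 of them bound by the filter, with 594 at an unadjusted p under 0.05.

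**Figure D5:**
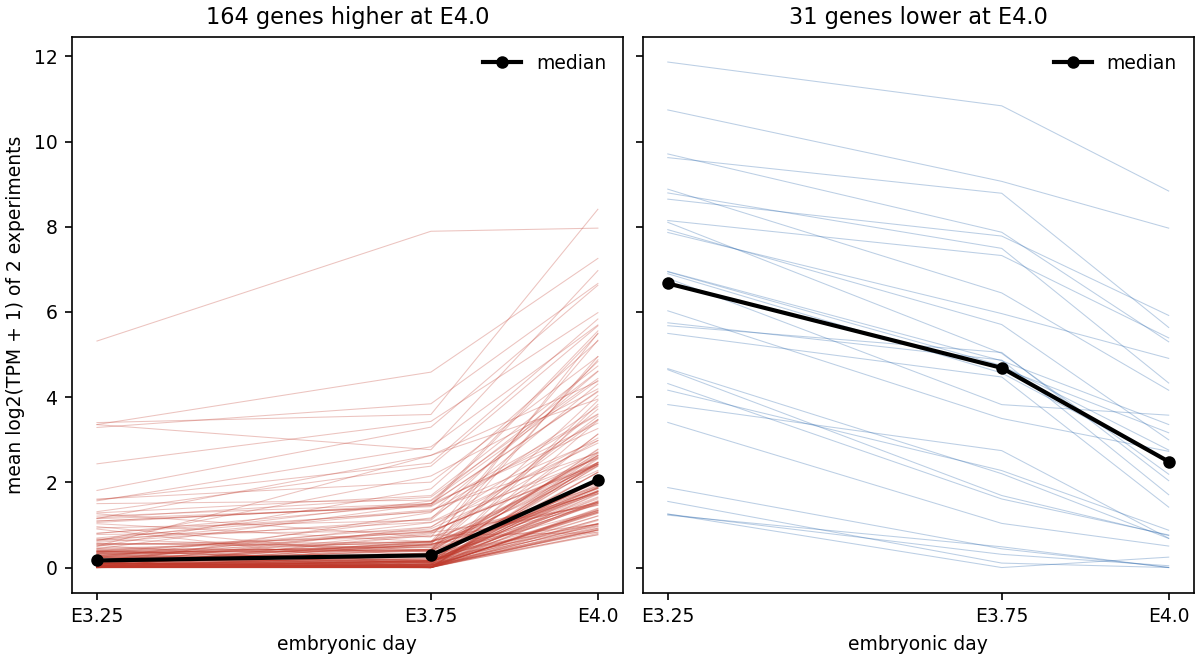
Mean log2(TPM + 1) of the 2 experiments of each fresh stage for each of the 164 genes higher at E4.0 (left) and 31 genes lower at E4.0 (right), with the median in black. The medians are 0.17, 0.29 and 2.06 on the left and 6.67, 4.69 and 2.49 on the right.

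Promoter windows were read from RefSeq (GRCm38.p6), 250 bases before to 50 after each start, for the genes that have an entry: 123 of the rising genes with 172 windows and 23 of the falling genes with 29. In 58.7% of the rising genes' windows and 48.3% of the falling genes' windows the CpG content was under 0.6 of that predicted from base composition, against 27.3% of 9873 windows of all tested genes. Of the 164 rising genes, 111 passed the filter on low values only through E4.0, against 587 of all tested genes. No set of genes matched for detection was compared, so the cause of the difference in CpG content was not tested. The motif TATAAA was searched on the sense strand between 40 and 16 bases before the start, where a TATA box lies when present. It was found in 4 windows of rising genes (2.33%), in none of the falling genes and in 0.932% of the windows of tested genes. A match is a description of the letters only. The 4 windows of 30 bases are shown because they hold the element among the genes that changed, with the motif in capitals.
Vim (chr2:13574267-13574296, plus strand): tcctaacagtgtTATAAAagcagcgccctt
Apobec2 (chr17:48432745-48432774, minus strand): ggagggcctgctTATAAAgcctgcagctga
H2-M5 (chr17:36989544-36989573, minus strand): acaccgcagtgtTATAAAatccacagagga
Aire (chr10:78043622-78043651, minus strand): ctggggagtaaaTATAAAcgcttacaggtg
H2-M5 differed between runs (adjusted p = 0.0114). The 4 genes rose by 1.49, 1.62, 1.01 and 2.13 and all 4 passed the filter on low values only through E4.0, and the motif begins 32, 34, 28 and 29 bases before the start. Apobec2 encodes a member of the cytidine deaminase family, Aire a regulator of antigen display in the thymus, and H2-M5 a class I-like histocompatibility protein. Aire lies across the Dnmt3l locus in the annotation, and the counting is not stated to use strand, so their reads cannot be told apart where they overlap.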

How the data were processed

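The authors deposited 1 table of TPM values for single cells. The submitters' processing notes name RSEM 1.3.3, STAR 2.7.9a, cutadapt 2.9 and bcl2fastq 2.20.0, and the build mm10, with no settings. Per the labels' protocols, reverse transcription started at the 3′ end of the RNA, so TPM, which divides by transcript length, compares 1 gene between cells rather than different genes. Sequencing depth per cell is unknown, as TPM holds none. The table has 55513 lines, of which 92 are spike-ins. The design text counts 20 E3.25 and 18 E4.0 cells, while 21 and 18 samples are labelled with these stages. The table holds 20 and 14 columns of them, and labelled samples of either stage without a column were not analysed here. A pair of E3.25 columns whose titles differ by a suffix correlated at 0.824 (highest other 0.783) and was averaged as 1 cell. No doublet caller was run, since each library is 1 picked cell.

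The value of an experiment was its mean log2(TPM + 1) over cells. A gene was kept (11680 were) when 25% or more of the cells of 1 group had a TPM of 1 or more. All 18 experiments of 7 groups, the LY294002 groups included, were fitted with limma 3.58.1 in R 4.3.3 (eBayes, trended, leaving 11 residual degrees of freedom). P-values were adjusted by Benjamini-Hochberg at a threshold of 0.05. Every adjusted p is from this fit unless a fit is named, and p-values measure the spread between experiments. The difference between sequencing runs and the change after against before E3.75 were contrasts added after seeing the data. The fits were tested on simulated data. Symbols of 11503 tested genes matched 1 GENCODE M21 gene, the source of positions and types.

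The rule for named genes took every lower gene, the 30 largest higher genes that passed in all 4 fits without 1 experiment, the members of each list past the threshold (up to 8, or the 2 largest each way where under 3 passed), 6 label markers, and the 5 largest changes in detection each way. Genes outside that rule were chosen after their values were seen. The genes and lists were chosen with earlier results of these data known. Alternatives were other filters, pseudocounts, scalings, samples, weights and runs, leaving out each experiment, and leaving out 2 E4.0 cells (added after seeing the data). Some genes are not reported here.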

Additional observations from a re-analysis of the deposited data

Results flagged for a closer look

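For 8 genes the change from E3.75 to E4.0 differed from that from E3.25 to E3.75 in a limma contrast of the 3 fresh stages, which shares the E3.75 experiments between both changes and was added after the data were seen. All but Tfpi and Hs3st1 passed the filter on low values only through E4.0, so they had to be rarely detected at the earlier stages. The later change exceeded the earlier by 5.17 for Tfpi, 4.73 for Srgn, 3.83 for Pth1r, 3.62 for Exoc3l, 3.52 for Hs3st1, 3.35 for Nid2, 3.16 for Foxa2 and 2.41 for Flrt3 on the log2(TPM + 1) scale, with adjusted p between 0.00334 and 0.0425. Srgn encodes the proteoglycan serglycin, Hs3st1 a heparan sulfate sulfotransferase and Flrt3 a cell adhesion protein. Hs3st1 went from 5 of 19 cells at E3.25 to none of 22 at E3.75 and 9 of 14 at E4.0, while Flrt3 was detected in 1, 2 and 11 cells. The later change took place over a shorter interval than the earlier one, and levels per hour were not compared.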

How the results depend on the processing

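No paired analysis was possible because the 4 experiments carry different dates and their numbers are only names. The main counts were 195 genes, 164 higher and 31 lower. Leaving out 1 experiment gave 70 to 304 genes, 63 to 286 higher and 7 to 25 lower, and in those fits the lone experiment of a stage is assumed to vary like the other groups. Without the first and the second E3.25 experiment the totals were 127 and 70, and without the first and the second E4.0 experiment 304 and 176. With the log of the mean TPM there were 129 genes, 91 higher. Fits of only the 4 experiments and of only the 6 fresh experiments gave 0 in both directions (1170 and 1277 at an unadjusted p under 0.05). Cells of run 1 alone gave 14 genes, 14 higher and 0 lower, and cells of run 2 alone 316, 80 lower. Without the 2 E4.0 cells that stood apart there were 298 genes, 57 lower, and with run 1 alone and without them 87, 85 higher and 2 lower. Lower genes numbered 53 with no filter, 71 after quantile normalization and 79 with genes detected as a covariate. The median over all genes, 0.20, was 0.00 with no filter, 0.28 with a filter of 50% of cells or rescaled without mitochondrial genes, 0.52 and 0.02 with pseudocounts of 0.1 and 10, 0.38 in run 1 and 0.36 there without the 2 cells. It turned to -0.12 with the log of the mean TPM, -0.01 after quantile normalization, -0.10 with the covariate and -0.04 in run 2. Without 1 experiment it lay between 0.13 and 0.22. Of named genes, Ube2dnl1 turned to -0.06 in run 1 and 3110056K07Rik to 0.00 in run 2. The direction held for 192 of the 195 genes in run 1, 193 in run 2 and 194 in run 1 without the 2 cells, and for every one tested in the other fits. The cause of these moves was not tested, other than that fits of fewer experiments have fewer residual degrees of freedom. With 2 experiments a stage and unknown depth, small differences and low genes were not resolved.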

Other observations

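Leaving out the 2 E4.0 cells that stood apart brought 80 further higher genes and 26 further lower genes past the threshold, named here after their values were seen. These counts follow in part from how the cells were chosen, since cells that resemble other groups were removed. Among the lower genes were Tfap2c, a transcription factor gene of trophoblast and germ cells (-3.14 without the 2 cells and -2.92 with them, adjusted p = 0.0426 and 0.0809), Wwtr1, which encodes the Hippo effector TAZ (-2.93 and -2.69, adjusted p = 0.0299 and 0.0601), and Perp, a membrane protein gene induced by p53 (-3.58 and -3.15, adjusted p = 0.0309 and 0.0655). The autophagy protease gene Atg4b stood at -3.65, and the lysosomal genes Gaa and Gm2a at -3.03 and -2.98. Among the higher genes were the endocytic receptor gene Cubn (2.63 without the 2 cells and 2.39 with them), the basement membrane gene Agrn (3.57 and 3.35), the lactate transporter gene Slc16a3 (1.70 and 1.39) and Tcl1, a co-activator of AKT (3.27 and 2.62).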
